A study of Homo sapiens with 12 samples.

Results

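The genes described here are 43 components of the lysosome: its digestive enzymes and their activators, its membrane proteins, subunits of the proton pump that acidifies it, and the transcription factors of the family that drives their expression. They were taken by symbol from a list of lysosomal genes drawn up with earlier results of these data known. The rule that matched symbols used no measured value. Of the 43 symbols, 42 were rows of the table of 22170 genes, and 41 passed the filter on low values that 14179 genes passed. The older symbol CTSL1 had no row. RefSeq lists it as a synonym of CTSL, whose values are given separately and are not counted among the members. IDUA, the iduronidase of heparan and dermatan sulfate breakdown, had a row but was not tested. It had 18 reads in all 12 libraries together, 11 of them in the first library with both drugs.

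The lysosome is the acidic compartment in which cells break down proteins, sugar chains and lipids that arrive by endocytosis and autophagy. Soluble hydrolases work at the low pH set by a vacuolar ATPase, and a coat of glycosylated membrane proteins separates them from the cytosol. TFEB, TFE3 and MITF are related transcription factors that bind an E-box in many lysosomal promoters. The kinase mTORC1, which senses growth factors and amino acids, keeps TFEB and TFE3 out of the nucleus by phosphorylation. Their activity is therefore set largely after transcription, and their own messenger RNA is only one of its inputs.

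The cells were SKBR3, an established breast cancer line with amplified HER2 (ERBB2), labelled wild type, and the measurement was messenger RNA by 75 base single-end sequencing. The 4 groups of 3 libraries were vehicle (DMSO) throughout, 100 nM lapatinib for the last 24 h after DMSO, 5 µM GSK126 for 7 days, and 5 µM GSK126 for 7 days with 100 nM lapatinib added for the last 24 h. Lapatinib is a kinase inhibitor of EGFR and HER2, and GSK126 inhibits EZH2, the methyltransferase of the repressive complex PRC2. All 4 groups come from 1 cell line, and no label ties a library to its own culture, so p-values measure only the spread between these libraries.

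Promoters are shown first because TFEB, TFE3 and MITF bind an E-box in many lysosomal promoters, and no binding was measured here. RefSeq promoters (GRCh38.p14, 250 bases before to 50 after the start) were matched for 30 of the 43 members, and CTSB, CTSL1, HEXA, HGSNAT, MANBA, NAGLU, SGSH, ARSA, PSAP, ASAH1, LAMP2, ATP6V1A and ATP6V1H had no entry there. The E-box CACGTG, searched on both strands, was in 10 of the 30 member promoters (33.3%), against 10.1% of the promoters of 10220 tested genes and 7.26% of all 35116 promoters. The longer form TCACGTGA, which contains CACGTG, was in 6 of 30 (20%), against 1.85% and 0.98%. These were the promoters of CTSA, GAA, LAMP1, MCOLN1, CLN3 and ATP6V0D1. The variant CATGTG on either strand was in 7 of 30 (23.3%), against 6.78% and 11.1%.

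The promoters of 6 members are printed to set members that rose, fell or were not called with lapatinib beside each other. Each runs 5′ to 3′ from 250 bases before to 20 bases after the start, with every CACGTG in capitals. GAA lies at chr17:80101331-80101600 on the plus strand, CTSA at chr20:45891085-45891354 on the plus strand, NEU1 at chr6:31862802-31863071 on the minus strand, MCOLN1 at chr19:7522374-7522643 on the plus strand, LAMP1 at chr13:113296989-113297258 on the plus strand, and GLA at chrX:101407906-101408175 on the minus strand.
GAA: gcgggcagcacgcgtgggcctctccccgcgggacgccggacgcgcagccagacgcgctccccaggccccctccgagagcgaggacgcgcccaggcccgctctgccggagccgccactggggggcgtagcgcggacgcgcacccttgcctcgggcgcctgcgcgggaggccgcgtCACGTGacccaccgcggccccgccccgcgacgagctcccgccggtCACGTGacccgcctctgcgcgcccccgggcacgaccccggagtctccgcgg
CTSA: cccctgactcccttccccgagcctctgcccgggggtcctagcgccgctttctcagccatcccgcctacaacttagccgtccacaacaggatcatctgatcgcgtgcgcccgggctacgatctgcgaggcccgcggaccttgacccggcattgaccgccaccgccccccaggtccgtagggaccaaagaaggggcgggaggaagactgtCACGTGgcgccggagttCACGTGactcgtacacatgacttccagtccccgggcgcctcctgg
NEU1: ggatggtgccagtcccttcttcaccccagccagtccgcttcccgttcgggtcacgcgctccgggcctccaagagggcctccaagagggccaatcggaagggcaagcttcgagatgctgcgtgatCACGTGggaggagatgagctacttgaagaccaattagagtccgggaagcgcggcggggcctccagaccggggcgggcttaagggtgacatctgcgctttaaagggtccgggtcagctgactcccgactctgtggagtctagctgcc
MCOLN1: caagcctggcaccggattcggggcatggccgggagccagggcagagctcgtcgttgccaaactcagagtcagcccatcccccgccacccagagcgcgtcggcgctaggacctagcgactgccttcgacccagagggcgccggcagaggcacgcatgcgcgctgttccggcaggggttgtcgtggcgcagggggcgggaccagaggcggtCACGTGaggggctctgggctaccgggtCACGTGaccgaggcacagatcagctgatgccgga
LAMP1: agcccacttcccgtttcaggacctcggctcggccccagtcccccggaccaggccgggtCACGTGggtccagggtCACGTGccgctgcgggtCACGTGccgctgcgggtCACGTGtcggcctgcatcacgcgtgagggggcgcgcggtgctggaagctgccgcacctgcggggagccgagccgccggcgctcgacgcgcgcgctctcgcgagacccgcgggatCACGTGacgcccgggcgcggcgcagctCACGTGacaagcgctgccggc
GLA: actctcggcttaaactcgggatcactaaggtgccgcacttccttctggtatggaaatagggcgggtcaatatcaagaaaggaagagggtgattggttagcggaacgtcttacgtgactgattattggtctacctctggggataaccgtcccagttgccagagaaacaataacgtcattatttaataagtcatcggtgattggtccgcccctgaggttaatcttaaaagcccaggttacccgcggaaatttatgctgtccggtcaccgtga

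GAA, CTSA and NEU1, with 2, 2 and 1 capital blocks, rose with lapatinib, and GLA, with 0, fell. MCOLN1 and LAMP1, with 2 and 6, were not called with lapatinib. Over the tested members with a promoter entry, CACGTG was in 3 of the 7 that rose with lapatinib, in 0 of the 2 that fell and in 7 of the 20 that were not called. Those 3 are the printed GAA, CTSA and NEU1. TPP1, IDS, PPT1 and GRN also rose, hold no CACGTG and are not printed, so the printed promoters do not represent the set. TCACGTGA was in 2 of 7, 0 of 2 and 4 of 20, and CATGTG in 4 of 7, 0 of 2 and 2 of 20. A match describes the letters in this window and is not a measured binding site.

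Values are normalized read counts, reads corrected for each library's size factor by the authors. The 12 libraries held 18.0 to 30.5 M reads, with 18.0 M in the first library with both drugs, in which 21669 genes had at least 1 read (15059 to 17338 elsewhere). The 86 spike-in transcripts took 0.384% to 1.72% of reads. Their proportions set GSK126 libraries 2 and 3 and the first library with both drugs apart (r = 0.995 to 0.997 among these 3 over 38 spike-ins, and 0.960 to 0.964 against GSK126 library 1, as a description). Replicate spread was widest with GSK126, with a median SD over the members of 0.366 on the log2 scale, against 0.147 with DMSO, 0.0778 with lapatinib and 0.144 with both. Luminal markers were high in every library (KRT8 at least 147156, ERBB2 at least 88082), while marker lists of other cell types summed far lower. Of 6 macrophage markers, PTPRC, LYZ and CD163 were at 0 in 8 of 12 libraries each and MARCO in 5, but CD14 (8.45 to 41.6) and CSF1R (80.7 to 877) were detected in all 12. Of 4 endothelial markers, KDR was at 0 in 7 libraries and PECAM1 in 6, but VWF (21.8 to 157) and CDH5 (56.4 to 1529) were detected in all 12.

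Changes below are log2 differences ± SE of log2(value + 1), tested with limma and adjusted by Benjamini-Hochberg over the 14179 genes. A gene was called at an adjusted p under 0.05. They are relative to the other genes of a library. Scaling to the spike-in total moved the median of all genes by -0.53 for lapatinib against DMSO, -1.03 for both drugs against GSK126, -0.46 for both against lapatinib, -1.00 for both against DMSO and 0.04 for GSK126 against DMSO, and total count scaling moved it by 0.17, 0.15, 0.09, 0.25 and 0.11. In bulk RNA, fewer cells with a high level and less RNA per cell cannot be told apart.

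With lapatinib, 14 of 41 members rose and 2 fell against DMSO, where 13.7% of all tested genes were called higher and 14.3% lower. The members that rose were enzymes and activators: the glycogen enzyme GAA, the growth factor precursor GRN, the saposin precursor PSAP, the thioesterase PPT1, and 10 others. The lysosomal galactosidase GLA and the cysteine peptidase CTSH fell. The median over the 41 was 0.39 against 0.04 over all tested genes, and under spike-in scaling these medians were -0.15 and -0.49. The 25 members not called included all 8 of the group of membrane proteins and lipid export, all 5 pump genes and all 3 transcription factors. Members were grouped by role, not by place in the lysosome. Without lapatinib library 1 the count called was 9, and without GSK126 library 1 it was 22, from 16.

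With GSK126, 4 of 41 members rose and 2 fell against DMSO, where 10.7% of all tested genes were called higher and 3.93% lower. CTSB, CTSF, GAA and GRN rose, and GLA and PPT1 fell. The summed endothelial markers moved with GSK126, from 206 to 269.8 with DMSO and 185 to 238 with lapatinib to 934 to 1561 with GSK126 and 784 to 1093 with both drugs. The summed macrophage markers ran 208 to 259, 89.2 to 119, 511 to 912 and 474 to 678 in the same order. Each of these largest sums was mostly 1 gene. CDH5 reached 1529 and no other endothelial marker passed 157, and CSF1R reached 877 and no other macrophage marker passed 41.6. The part of these markers in this and the other comparisons with GSK126 was not tested. The median was 0.10 against -0.04 over all tested genes. The count was 3 without DMSO library 3 and 10 without GSK126 library 2. In a fit of these 2 groups alone 1 of the 6 was called, GRN. With the spike-in composition as a term 0 of 41 were. That term gave GSK126 library 1 a level of its own, and no GSK126 library shared a level with DMSO. The fit could therefore hardly separate GSK126 from composition, and its count decides nothing about these calls.

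Lapatinib on top of GSK126 raised 8 of 41 members and lowered 1 against GSK126 alone, where 8.48% of all tested genes were called higher and 9.71% lower. CTSA, CTSB, IDS, NEU1, PSAP, PPT1, ASAH1 and GRN rose, and GLA fell. The median was 0.21 against 0.04, and under spike-in scaling -0.84 against -0.99. In a fit of these 2 groups alone 1 of the 9 was called, GLA, and the spread with GSK126 (above) enters that fit in full. The count was 6 without the first, the second or the third library with both drugs, and 13 without GSK126 library 2.

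GSK126 on top of lapatinib raised 5 of 41 members and lowered 1 against lapatinib alone, where 11.5% of all tested genes were called higher and 6.35% lower. CTSB, CTSH, GRN, CD63 and TFEB rose, and PPT1 fell, and each of these calls was also made in all 12 fits that left out 1 library. Under spike-in scaling none of the members was called in this comparison. The median was 0.02 against -0.03, and under spike-in scaling -0.44 against -0.49.

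Both drugs together raised 14 of 41 members and lowered 2 against DMSO, where 22.0% of all tested genes were called higher and 20.1% lower. The median was 0.30 against 0.06, and under spike-in scaling -0.70 against -0.94. GLA and the calcium channel gene MCOLN1 fell. The count was 10 without DMSO library 1 or without the first or second library with both drugs, and 22 without GSK126 library 2. These 5 comparisons share groups, so their counts are not independent of each other. Together the 42 genes took 0.936% to 0.996% of gene reads with DMSO, 1.49% to 1.55% with lapatinib, 1.06% to 1.21% with GSK126 and 1.54% to 1.60% with both drugs. The most abundant members, CTSD, PSAP and PPT1, weigh most in this sum, which does not describe the set gene by gene. Their means were 94245, 49677 and 28543 with DMSO and 125682, 88184 and 47801 with lapatinib, and CTSD was not called.

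**Figure D1:**
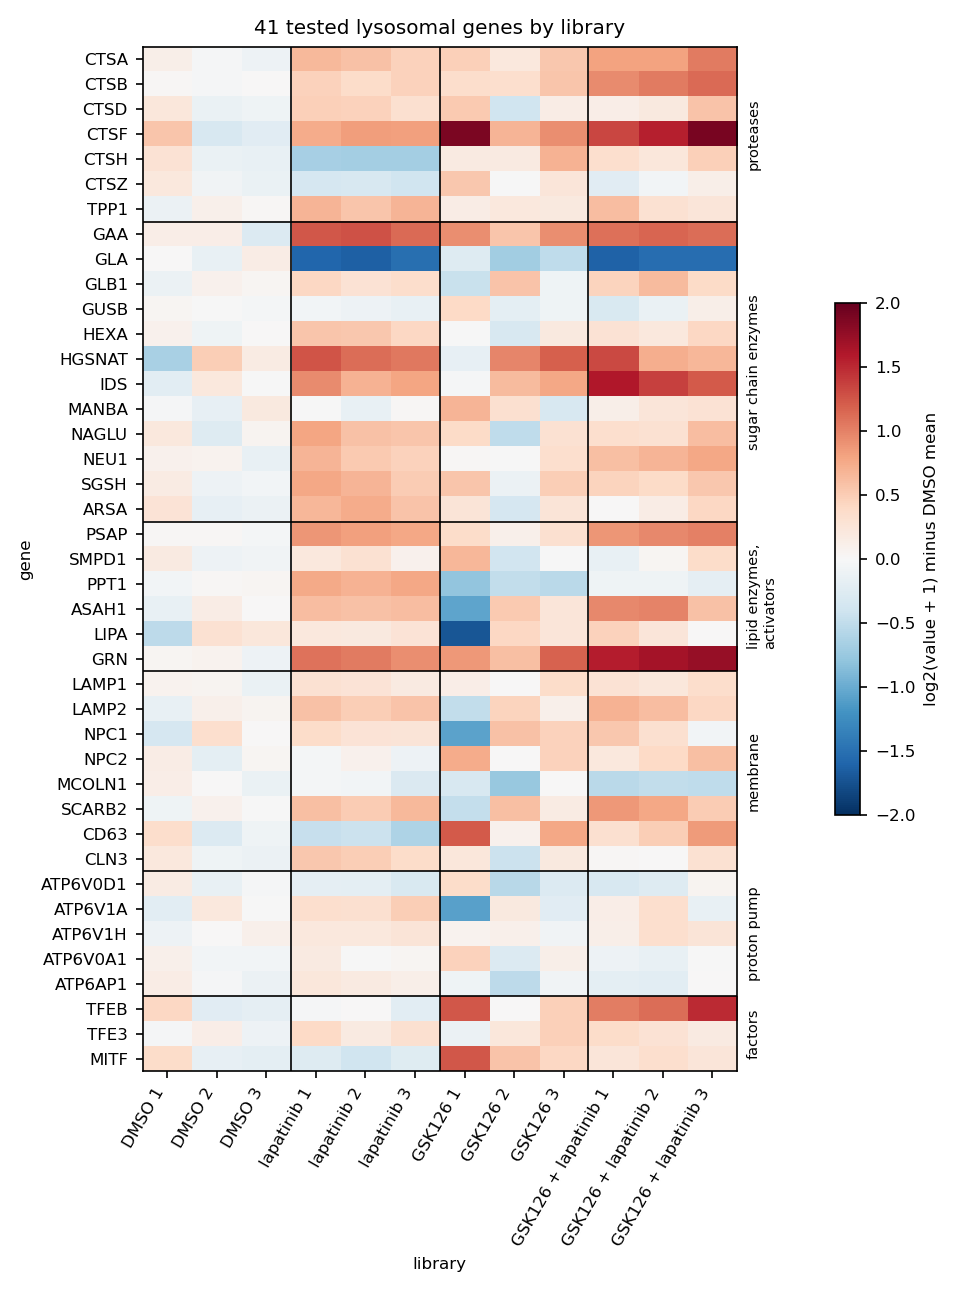
Each row is 1 of the 41 tested lysosomal genes, grouped by role, and each column 1 library. Colour gives log2(value + 1) minus the DMSO mean on the deposited scaling, from blue (lower) to red (higher), and the GLA row is blue in the 3 lapatinib libraries and the 3 with both drugs while most hydrolase rows there are red. Under spike-in scaling the lapatinib columns move down (all-gene median -0.49).

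**Figure D2:**
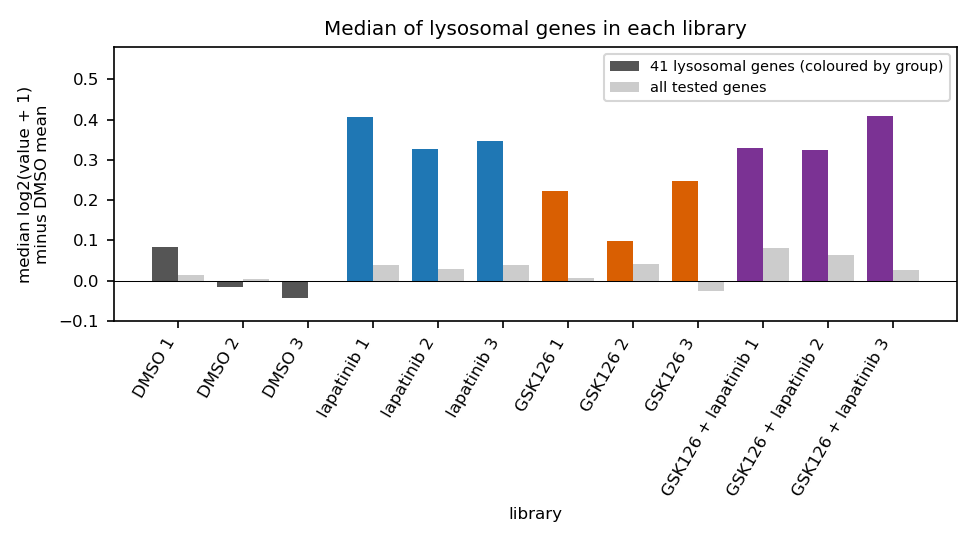
Bars give, for each library, the median of log2(value + 1) minus the DMSO mean over the 41 lysosomal genes (coloured by group) and over all 14179 tested genes (grey). The lysosomal medians were 0.33 to 0.41 in the lapatinib libraries, 0.098 to 0.25 with GSK126 and 0.33 to 0.41 with both drugs. This is on the deposited scaling; under spike-in scaling the members' median change with lapatinib was -0.15.

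The proteases cut proteins at low pH. Of 7 tested, 3 rose and 1 fell with lapatinib, 2 rose with GSK126, and 4 rose with both drugs against DMSO. The shares higher were 42.9%, 28.6% and 57.1%, against 13.7%, 10.7% and 22.0% of all tested genes. The shares lower were 14.3%, 0% and 0%, against 14.3%, 3.93% and 20.1%. CTSB, a cysteine cathepsin, had 1934, 1870.5 and 1904 with DMSO, 2609, 2463 and 2621 with lapatinib, 2428, 2404 and 2784 with GSK126, and 3660.3, 3911 and 4154 with both drugs. The groups with 1 drug lay above every DMSO library and the 3 libraries with both drugs above all others. The change was 0.43 ± 0.12, adjusted p = 0.0149 with lapatinib and 0.41 ± 0.12, adjusted p = 0.0291 with GSK126. It was 0.62 ± 0.12, adjusted p = 0.0026 for both drugs against GSK126, 0.61 ± 0.12, adjusted p = 0.00231 against lapatinib and 1.04 ± 0.12, adjusted p = 1.65e-05 against DMSO, where the fold was 2.05. The lapatinib call was lost without lapatinib library 1 (adjusted p = 0.0621) or 3 (0.063), and the GSK126 call in 8 of the 12 fits that left out 1 library (0.053 to 0.0817), among them each DMSO library, each lapatinib library, GSK126 library 3 and the second library with both drugs. Under spike-in scaling CTSB was at -0.11 with lapatinib and -0.42 for both drugs against GSK126.

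CTSA, the carboxypeptidase that also stabilizes the sialidase NEU1 and the galactosidase GLB1, had 10297.5, 9425 and 8928 with DMSO, 14982, 14249 and 13192 with lapatinib, 13260.5, 11025 and 13901.5 with GSK126, and 16598, 16582 and 19523.5 with both drugs. Every treated library was above every DMSO library. It rose by 0.57 ± 0.14 with lapatinib (adjusted p = 0.00833) and by 0.88 ± 0.14 with both drugs against DMSO (adjusted p = 0.000246). With GSK126 alone it was at 0.41 ± 0.14, adjusted p = 0.064, not called. The rise of 0.47 ± 0.14 over GSK126 (adjusted p = 0.0318) was lost without any 1 of 7 libraries (0.0506 to 0.106), each lapatinib library, GSK126 library 2 and each library with both drugs.

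CTSH, an aminopeptidase of the cysteine cathepsins, had 728, 545 and 536 with DMSO, 378, 373 and 371 with lapatinib, 679, 679.5 and 968 with GSK126, and 750.5, 699.7 and 829.8 with both drugs. The 3 lapatinib libraries were the lowest of all 12 and nearly equal. CTSH fell by 0.67 on the log2 scale with lapatinib (adjusted p = 0.0128), a call lost without DMSO library 1 (0.0598), and rose 2.03-fold when GSK126 was present with lapatinib (1.02 ± 0.18, adjusted p = 0.00117). Lapatinib on top of GSK126 left it at -0.01 ± 0.18, adjusted p = 0.968.

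CTSF, another cysteine cathepsin, had 538, 293 and 315 with DMSO, 618, 658 and 652 with lapatinib, 1353, 589.8 and 702 with GSK126, and 929.7, 1086 and 1368 with both drugs. GSK126 library 1 stood above the other two of its group, and the DMSO and GSK126 groups did not overlap. It rose by 1.16 ± 0.29 with GSK126 (adjusted p = 0.0179) and by 1.60 ± 0.29 with both drugs against DMSO (adjusted p = 0.000894). The GSK126 call was lost without DMSO library 2 (0.0712) or 3 (0.0765). TPP1, a tripeptidyl peptidase, rose by 0.63 ± 0.13 with lapatinib (adjusted p = 0.00393), from 913, 1065 and 1008 with DMSO to 1590.3, 1455 and 1585. With both drugs against DMSO its change of 0.39 ± 0.13, adjusted p = 0.0318 was lost without any 1 of 5 libraries (0.0504 to 0.153): DMSO 1 or 3, lapatinib 1, or the first or second with both drugs.

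CTSD, the main aspartic protease of the lysosome, was called in no comparison. It had 109326, 85279 and 88129 with DMSO, 130649, 128941 and 117457 with lapatinib, 135054, 71144 and 103722 with GSK126, and 103015, 107160.0 and 138453 with both drugs. The DMSO and lapatinib libraries did not overlap, at a change of 0.42 ± 0.23, adjusted p = 0.183, and the 3 GSK126 libraries ran from below every DMSO library to above them all. CTSZ, a carboxypeptidase, was also called nowhere on the deposited scaling, with changes from -0.35 with lapatinib to 0.30 for both drugs against lapatinib. Under spike-in scaling CTSZ was called lower for both drugs against GSK126 (-1.36, limma, adjusted p = 0.0389).

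The enzymes of sugar chains remove sugars, sulfates or acetyl groups from glycogen, glycolipids and glycosaminoglycans. Of 12 tested, 8 rose and 1 fell with lapatinib, 1 rose and 1 fell with GSK126, 2 rose and 1 fell for both drugs against GSK126, 0 were called against lapatinib (limma, 2 at an unadjusted p under 0.05; edgeR 0, DESeq2 1, IDS), and 4 rose and 1 fell against DMSO. In this order the shares higher were 66.7%, 8.33%, 16.7%, 0% and 33.3%, against 13.7%, 10.7%, 8.48%, 11.5% and 22.0% of all tested genes. The shares lower were 8.33%, 8.33%, 8.33%, 0% and 8.33%, against 14.3%, 3.93%, 9.71%, 6.35% and 20.1%. GLA, the galactosidase of globotriaosylceramide, had 1446, 1306 and 1593 with DMSO, 483, 465 and 505 with lapatinib, 1207, 891 and 1018 with GSK126, and 468, 503 and 501 with both drugs. The 6 libraries with lapatinib formed a narrow band, below every library without it. GLA fell by 1.58 on the log2 scale with lapatinib, to 0.336 of the DMSO level (adjusted p = 7e-06), and by 1.07 for both drugs against GSK126 (adjusted p = 0.000252). Its fall of 0.49 with GSK126 (adjusted p = 0.0385) was lost in 10 of the 12 fits that left out 1 library (0.0546 to 0.149), all but DMSO library 2 and GSK126 library 1. GSK126 on top of lapatinib left it at 0.02 ± 0.14, adjusted p = 0.953.

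GAA, the glucosidase of glycogen, had 1285, 1287 and 971 with DMSO, 2783, 2846 and 2569 with lapatinib, 2226, 1714 and 2239.9 with GSK126, and 2505, 2623 and 2555 with both drugs. The lapatinib libraries and those with both drugs overlapped, and the GSK126 libraries lay between them and DMSO. It rose 2.33-fold with lapatinib (1.22 ± 0.15, adjusted p = 8.16e-05) and 1.75-fold with GSK126 (0.80 ± 0.15, adjusted p = 0.00267). With both drugs it was 2.19-fold above DMSO (1.13 ± 0.15, adjusted p = 7.07e-05), at -0.09 ± 0.15, adjusted p = 0.758 against lapatinib and 0.32 ± 0.15, adjusted p = 0.151 against GSK126.

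IDS, the sulfatase of heparan and dermatan sulfate, had 818, 1096 and 946 with DMSO, 1816, 1537 and 1639 with lapatinib, 931, 1472 and 1613 with GSK126, and 2889, 2450.2 and 2219.6 with both drugs. Libraries with both drugs were the highest, GSK126 library 1 lay within the DMSO range, and the other two GSK126 libraries lay above it. IDS rose by 0.81 ± 0.20 with lapatinib (adjusted p = 0.00971), by 0.94 ± 0.20 for both drugs against GSK126 (adjusted p = 0.00625) and by 1.40 ± 0.20 against DMSO (adjusted p = 0.000128). NEU1, the lysosomal sialidase, had 1390.0, 1379 and 1177 with DMSO, 2091, 1889 and 1806.5 with lapatinib, 1338, 1308 and 1649 with GSK126, and 1986, 2091 and 2248 with both drugs. All 6 libraries with lapatinib were above all 6 without. NEU1 rose by 0.55 ± 0.14 with lapatinib (adjusted p = 0.00958) and 0.56 ± 0.14 on top of GSK126 (adjusted p = 0.013), calls lost without lapatinib library 1 (0.0531) and without library 3 of the combination (0.0508).

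Several enzymes of heparan sulfate breakdown and a sulfatide enzyme also rose with lapatinib, with less margin. SGSH, a sulfamidase, rose by 0.66 ± 0.17 (adjusted p = 0.0129), from 2172, 1805 and 1877 to 3329, 3131 and 2767, and lost the call without lapatinib library 1 (0.0596). NAGLU, a glucosaminidase, rose by 0.64 ± 0.22 (adjusted p = 0.0488) and lost the call in 9 of 12 fits that left out 1 library (0.0566 to 0.155), all but those without a GSK126 library. HGSNAT, the acetyltransferase, rose by 1.14 ± 0.35 (adjusted p = 0.0297), from 115, 257 and 204 to 435, 395 and 378, and lost it in 5 (0.0574 to 0.127): without DMSO library 1 or 3 or any lapatinib library. DMSO library 1 was the lowest of the 12 for HGSNAT.

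HEXA, the alpha subunit of hexosaminidase, rose by 0.50 ± 0.14 with lapatinib (adjusted p = 0.0192), was at -0.04 under spike-in scaling, and lost the call without DMSO library 2 or 3 or lapatinib library 1 or 2 (0.0544 to 0.075). ARSA, the sulfatase of sulfatide, rose by 0.65 ± 0.19 (adjusted p = 0.0223) and lost the call in 5 fits (0.0505 to 0.0793): without DMSO library 2 or 3 or any lapatinib library. With both drugs against DMSO, SGSH was called at 0.45 ± 0.17, adjusted p = 0.0484, lost in 9 of 12 fits (0.0522 to 0.129, all but those without a GSK126 library). GLB1, GUSB and MANBA, which remove galactose, glucuronic acid and mannose, were called in no comparison. GUSB stayed between -0.15 and 0.04 in the 5 comparisons of groups.

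The lipid enzymes and activators digest sphingolipids, acylated proteins and cholesteryl esters. Of 6 tested, 3 rose with lapatinib, 1 rose and 1 fell with GSK126, 4 rose for both drugs against GSK126, 1 rose and 1 fell against lapatinib, and 3 rose against DMSO. In this order the shares higher were 50%, 16.7%, 66.7%, 16.7% and 50%, against 13.7%, 10.7%, 8.48%, 11.5% and 22.0% of all tested genes. The shares lower were 0%, 16.7%, 0%, 16.7% and 0%, against 14.3%, 3.93%, 9.71%, 6.35% and 20.1%. PSAP, the precursor of the saposins that present sphingolipids to their enzymes, had 50403, 50437 and 48189.9 with DMSO, 91288, 87908 and 85355 with lapatinib, 63928, 53165 and 62212 with GSK126, and 91919.5, 96554 and 100249 with both drugs. The 6 libraries with lapatinib were above the 6 without, with no overlap. PSAP rose 1.77-fold with lapatinib (0.83 ± 0.14, adjusted p = 0.00081), 1.61-fold on top of GSK126 (0.69 ± 0.14, adjusted p = 0.00429) and 1.94-fold with both drugs against DMSO (0.95 ± 0.14, adjusted p = 0.000141). Under spike-in scaling the last 2 were -0.35 and -0.05.

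GRN, the progranulin precursor, whose granulins act in the lysosome, had 2469.9, 2528 and 2233 with DMSO, 5101, 4953 and 4589 with lapatinib, 4408, 3638 and 5425 with GSK126, and 7178, 7593 and 8085 with both drugs. Every library with 1 drug was above DMSO, and every library with both drugs above all others. GRN rose by 1.02 ± 0.15 with lapatinib (adjusted p = 0.000279) and by 0.88 ± 0.15 with GSK126 (adjusted p = 0.00121). It rose again by 0.78 ± 0.15 and 0.64 ± 0.15 for both drugs against GSK126 and against lapatinib (adjusted p = 0.00294 and 0.00777), to 3.16-fold the DMSO level (1.66 ± 0.15, adjusted p = 2.35e-06). These 5 calls were made in all 12 fits that left out 1 library, and those fits kept the deposited scaling. In the fit of the 2 groups alone GRN was not called for both drugs against GSK126. Under spike-in scaling GRN was called in none of the 5 (limma, adjusted p = 0.286 to 0.828). Its changes there ran from -0.26 for both drugs against GSK126 to 0.92 with GSK126.

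PPT1, which removes palmitate from proteins, moved in opposite directions with the 2 drugs. It had 27524, 28933 and 29171 with DMSO, 48510.2, 46109.9 and 48784 with lapatinib, 16475, 20329.8 and 19570.1 with GSK126, and 26828.5, 26985 and 25181 with both drugs. Lapatinib libraries were the highest, GSK126 libraries the lowest, and libraries with both drugs lay just under DMSO. PPT1 rose by 0.74 ± 0.13 with lapatinib (adjusted p = 0.00102) and fell by 0.61 with GSK126 (adjusted p = 0.00613) and by 0.86 for both drugs against lapatinib (adjusted p = 0.000386). With both drugs against DMSO it was at -0.12 ± 0.13, adjusted p = 0.494, not called. The rise of 0.49 ± 0.13 on top of GSK126 (adjusted p = 0.0191) was lost without the first (0.0627) or second (0.0828) library with both drugs.

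ASAH1, acid ceramidase, had 2054, 2518 and 2293 with DMSO, 3489, 3407 and 3516 with lapatinib, 1102, 3283 and 2709 with GSK126, and 4418, 4552 and 3418 with both drugs. GSK126 library 1 was the lowest of the 12, and the other two of its group lay between the DMSO libraries and those with both drugs. ASAH1 rose by 0.94 ± 0.30 for both drugs against GSK126 (adjusted p = 0.0491) and by 0.84 ± 0.30 against DMSO (adjusted p = 0.0397). The first call was lost in 9 of 12 fits (0.0592 to 0.154), all but those without a GSK126 library, and the second in 8 (0.0535 to 0.118), all but those without a GSK126 library or library 3 of the combination. With lapatinib it was at 0.61 ± 0.30, adjusted p = 0.157. LIPA, the acid lipase, and SMPD1, acid sphingomyelinase, were called nowhere, and LIPA was at 171, 745 and 660.3 in the GSK126 libraries.

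**Figure D3:**
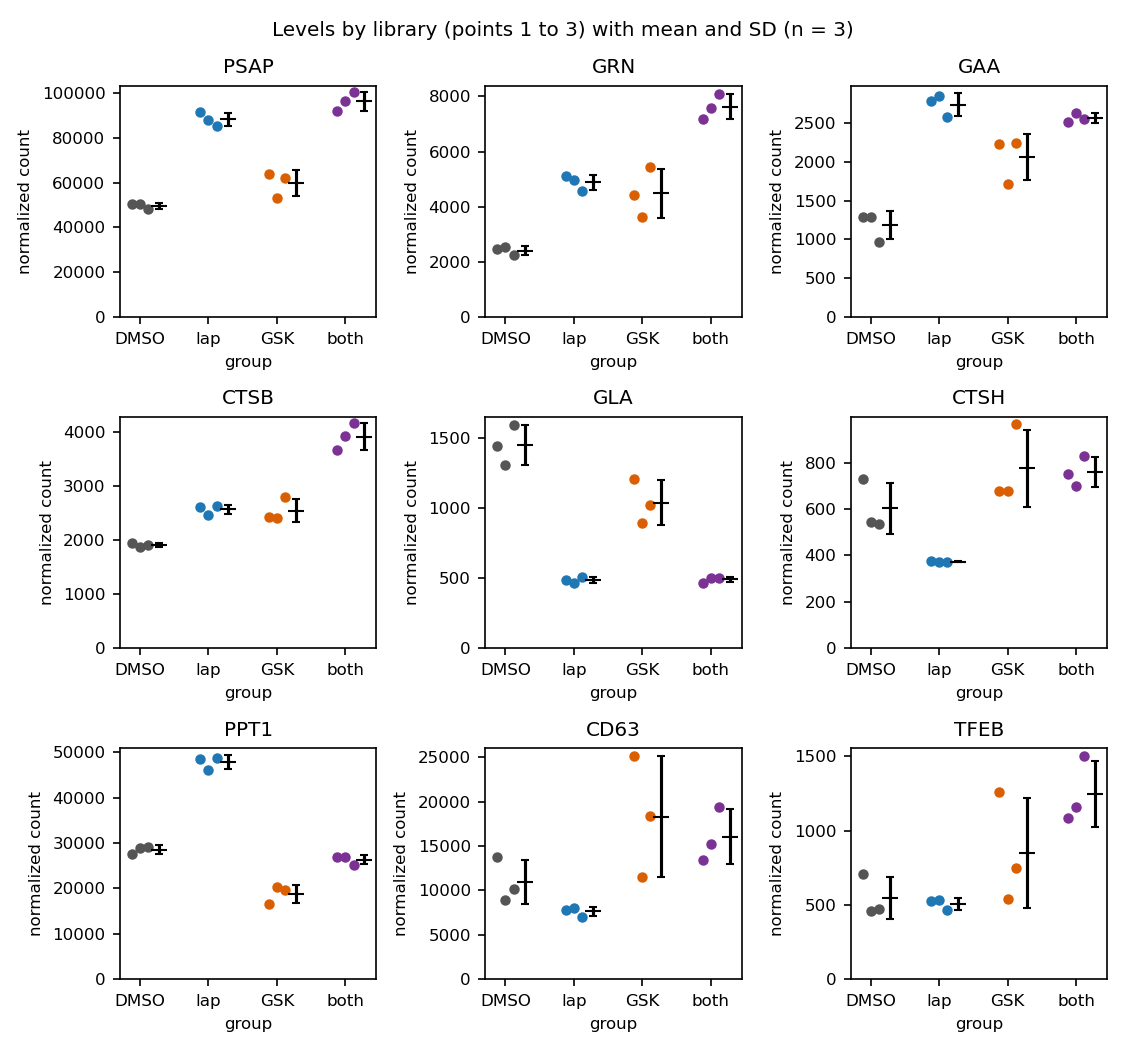
Points give the normalized count in each library for PSAP, GRN, GAA, CTSB, GLA, CTSH, PPT1, CD63 and TFEB in the DMSO, lapatinib (lap), GSK126 (GSK) and combination (both) groups, with the mean and SD (n = 3) beside them and axes from 0. GRN and CTSB were highest with both drugs, GLA was between 465 and 505 in all 6 libraries with lapatinib, and PPT1 was high with lapatinib and low with GSK126. Under spike-in scaling the changes of CTSB, GRN, PSAP and PPT1 for both drugs against GSK126 were -0.42, -0.26, -0.35 and -0.55. None of these was called there (limma, adjusted p = 0.515, 0.67, 0.476 and 0.345).

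The group of membrane proteins and lipid export holds the coat, the lipid exporters and a calcium channel. Of 8 tested, 0 were called by limma with lapatinib (3 at an unadjusted p under 0.05), with GSK126 (2) or for both drugs against GSK126 (2), while 1 rose against lapatinib, and 2 rose and 1 fell against DMSO. In the first 3 of these, edgeR called 0 in each and DESeq2 called 2 (SCARB2 and LAMP2), 1 (CD63) and 0. The limma shares were near those of all tested genes against lapatinib (12.5% higher against 11.5%) and against DMSO (25% higher against 22.0%, 12.5% lower against 20.1%). With lapatinib 13.7% of all tested genes were called higher and 14.3% lower. LAMP1, with LAMP2 the main glycoprotein of the coat, had 11564, 11397 and 9982 with DMSO, 13542, 13248.5 and 12452 with lapatinib, 12045, 10961 and 14071 with GSK126, and 13388, 12881 and 13919 with both drugs. The lapatinib libraries lay above DMSO at 0.25 ± 0.13, adjusted p = 0.164, which did not pass. LAMP2, which also serves in autophagy, had 2907, 3432 and 3326 with DMSO, 4824, 4514 and 4791 with lapatinib, 2277, 4367 and 3432 with GSK126, and 5192, 4947 and 4284 with both drugs, and GSK126 library 1 was its lowest.

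LAMP2 missed the call with lapatinib at 0.55 ± 0.20, adjusted p = 0.0518, and was called without GSK126 library 1 (adjusted p = 0.00337) or 2 (0.0151). For both drugs against GSK126 it was called without GSK126 library 2 (0.00571). Both drugs raised it by 0.58 ± 0.20 against DMSO (adjusted p = 0.0309), lost without DMSO library 1 or 3 or the first or second library with both drugs (0.0622 to 0.106). SCARB2, the receptor that carries glucocerebrosidase to the lysosome, rose by 0.72 ± 0.22 against DMSO (adjusted p = 0.0174), lost without DMSO library 1 (0.0569) or the first (0.0689) or second (0.0583) with both drugs. Under spike-in scaling these were -0.43 and -0.29.

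MCOLN1, the calcium channel of the lysosomal membrane, had 967, 894 and 804 with DMSO, 859.8, 851 and 725 with lapatinib, 706, 526 and 892 with GSK126, and 606, 630.1 and 619.7 with both drugs. The libraries with both drugs were below every DMSO and lapatinib library. MCOLN1 fell by 0.52 against DMSO (adjusted p = 0.0337), lost without DMSO library 1 or 2 or any library with both drugs (0.0697 to 0.112). With lapatinib it was at -0.13 ± 0.18, adjusted p = 0.623. Its printed promoter holds TCACGTGA more than once, and binding there was not measured.

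CD63, a tetraspanin of late endosomes, had 13722, 8959 and 10189 with DMSO, 7789.9, 8031 and 7036 with lapatinib, 25124.5, 11484 and 18332 with GSK126, and 13433, 15205 and 19443 with both drugs. The GSK126 libraries ran from within the DMSO range to well above it, and the libraries with both drugs were above every lapatinib library. CD63 rose 2.08-fold for both drugs against lapatinib (1.06 ± 0.25, adjusted p = 0.0102). CD63 was at -0.50 ± 0.25, adjusted p = 0.159 with lapatinib and 0.69 ± 0.25, adjusted p = 0.0934 with GSK126. Under spike-in scaling CD63 was called lower for both drugs against GSK126 (-1.18, limma, adjusted p = 0.0404). Against lapatinib it was then at 0.59, not called (adjusted p = 0.513). NPC1 and NPC2, which export cholesterol, and CLN3 were called in no comparison. NPC1 was at 665, 2098 and 1927 in the GSK126 libraries, the first again the lowest, while NPC2 was at -0.01 with lapatinib and 0.40 with GSK126.

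The vacuolar ATPase has a catalytic part, to which ATP6V1A and ATP6V1H belong, and a membrane part, to which ATP6V0A1 and ATP6V0D1 belong, with ATP6AP1 as an accessory subunit. None of the 5 was called in any of the 6 comparisons with limma, edgeR or DESeq2, and with limma 0 of 5 had an unadjusted p under 0.05 in each. Of all tested genes 13.7% were called higher and 14.3% lower with lapatinib, and 22.0% and 20.1% with both drugs against DMSO. With lapatinib they ran from -0.23 (ATP6V0D1) to 0.39 (ATP6V1A), and with both drugs against DMSO from -0.18 to 0.24. ATP6V1H had 1592, 1715 and 1824 with DMSO, 1974, 1987 and 2041 with lapatinib, 1801, 1835 and 1634 with GSK126, and 1858, 2161 and 2045 with both drugs. Its lapatinib libraries lay above every DMSO library, at 0.23 ± 0.12, adjusted p = 0.173, not called. ATP6V1A had 771, 1866 and 1390.4 in the GSK126 libraries, a spread wider than any of its differences between group means.

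Other pump genes, from a wider list of 21 genes of which 19 were tested, were called in part. With lapatinib 6 rose and 2 fell, with GSK126 2 rose and 0 fell, and with both drugs against DMSO 7 rose and 4 fell. As shares these were 31.6% higher and 10.5% lower with lapatinib, where 13.7% and 14.3% of all tested genes were called, 10.5% higher with GSK126, where 10.7% were, and 36.8% and 21.1% with both drugs, where 22.0% and 20.1% were. The other 11, 17 and 8 were not called. ATP6V1B1, an isoform best known from acid-secreting cells of kidney and inner ear, had 1597, 1475 and 1437 with DMSO, 5638, 5446 and 5084 with lapatinib, 2544, 1751 and 2275 with GSK126, and 5164, 5320.2 and 6449 with both drugs. All 6 libraries with lapatinib were at least 5084, and all 6 without were at most 2544. It rose 3.58-fold with lapatinib (1.84 ± 0.15, adjusted p = 2.75e-06). Its smaller rise with GSK126 (0.53 ± 0.15, adjusted p = 0.0334) was lost in 9 of the 12 fits that left out 1 library (0.0524 to 0.112), all but GSK126 library 2 and libraries 1 and 3 of the combination.

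ATP6V0A4, an isoform of the same cells, had 598, 492 and 533 with DMSO, 1549, 1347 and 1411 with lapatinib, 552, 709 and 796 with GSK126, and 1777, 1684 and 1532 with both drugs, and rose 2.66-fold with lapatinib (1.41 ± 0.16, adjusted p = 3.49e-05). ATP6V1C2 had 366.5, 290.5 and 237 with DMSO, 359, 359.7 and 344 with lapatinib, 721, 659 and 687 with GSK126, and 1589, 1547 and 1584 with both drugs. It rose with GSK126 (1.23 ± 0.16, adjusted p = 0.000156) and again when lapatinib was added to GSK126 (1.19 ± 0.16, adjusted p = 0.000222), while with lapatinib alone it was at 0.27 ± 0.16, adjusted p = 0.217. The widely expressed counterparts ATP6V1B2, ATP6V0A1 and ATP6V1C1, named after their values were seen, were at 0.20, 0.07 and 0.32 with lapatinib, none called. The difference between isoforms was not tested.

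**Figure D4:**
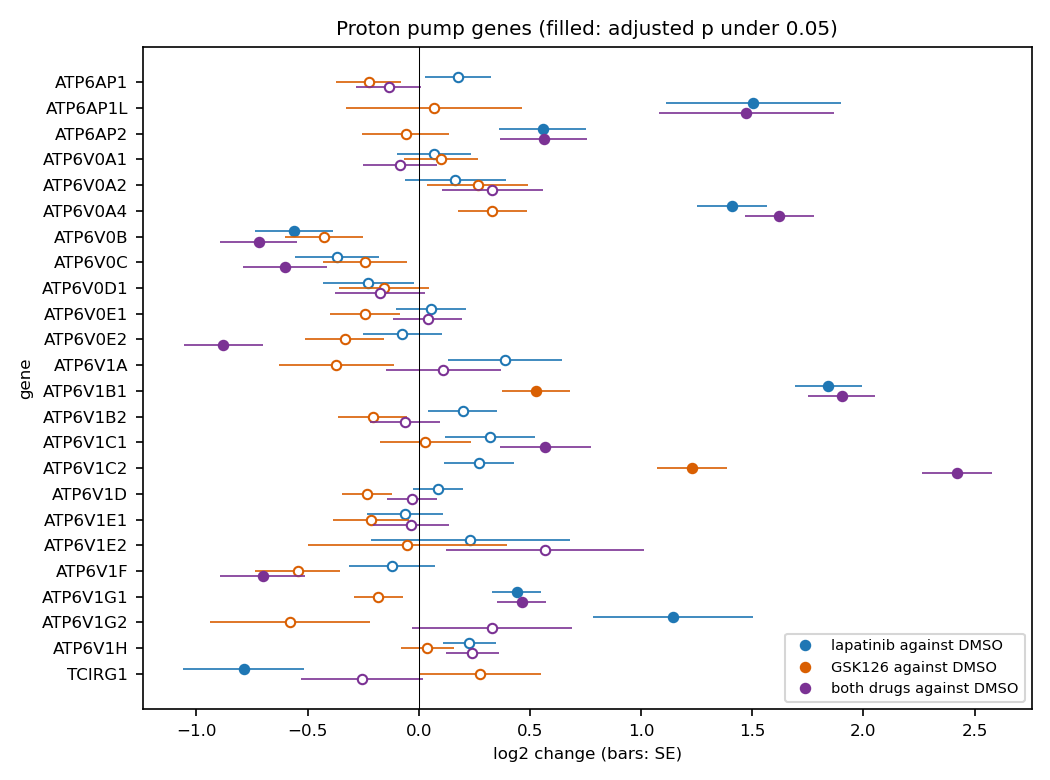
Points give the log2 change of 24 proton pump genes (5 members and 19 from the wider list) for lapatinib, GSK126 and both drugs, each against DMSO, with SE bars; filled points passed an adjusted p of 0.05. ATP6V1B1, ATP6V0A4 and ATP6V1C2 stand furthest right, while the 5 members ATP6AP1, ATP6V0A1, ATP6V0D1, ATP6V1A and ATP6V1H have open points. Values are on the deposited scaling, and ATP6V1G1 with lapatinib is at -0.10 under spike-in scaling.

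Of the 3 transcription factors, 0 were called by limma with lapatinib (0 at an unadjusted p under 0.05), with GSK126 (1) or for both drugs against GSK126 (1), and 1, TFEB, rose for both drugs against lapatinib and against DMSO. In the first 3 comparisons edgeR called 0 in each and DESeq2 0, 1 (MITF) and 0. Of all tested genes 11.5% were called higher against lapatinib and 22.0% against DMSO, and 3 genes are too few for a share. TFEB had 708, 457 and 471 with DMSO, 528, 535 and 463 with lapatinib, 1262, 539 and 745 with GSK126, and 1087, 1157 and 1502 with both drugs. The lapatinib libraries lay within the DMSO range, the GSK126 libraries ran from that range to above it, and the libraries with both drugs were above every DMSO and lapatinib library. TFEB rose 2.43-fold for both drugs against lapatinib (1.28 ± 0.27, adjusted p = 0.00475) and 2.31-fold against DMSO (1.21 ± 0.27, adjusted p = 0.00332). With lapatinib it was at -0.07 ± 0.27, adjusted p = 0.865. With GSK126 it was at 0.58 ± 0.27, adjusted p = 0.199, and was called without GSK126 library 2 (0.0357), and for both drugs against GSK126 without GSK126 library 1 (0.00685).

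TFE3 had 685, 764 and 646 with DMSO, 915, 789.7 and 874 with lapatinib, 641, 818 and 969.7 with GSK126, and 904, 849 and 793 with both drugs, and was called in no comparison, at 0.30 ± 0.16, adjusted p = 0.184 with lapatinib and 0.28 ± 0.16, adjusted p = 0.177 with both drugs. MITF had 127, 87.9 and 86.4 with DMSO, 82.3, 74.5 and 83.5 with lapatinib, 235, 147 and 133 with GSK126, and 117, 125 and 117 with both drugs. GSK126 library 1 was its highest, and the GSK126 libraries did not overlap DMSO. MITF was at 0.74 ± 0.24, adjusted p = 0.0603 with GSK126, not called, and was called without DMSO library 1 (0.0382) or GSK126 library 3 (0.0352), and for both drugs against lapatinib without GSK126 library 1 (0.0488). Under spike-in scaling MITF was called lower for both drugs against GSK126 (-1.51, limma, adjusted p = 0.0439). Of 4 melanocyte markers, TYR, DCT and MLANA were at 0 in 11, 9 and 8 of the 12 libraries, and PMEL was detected in all 12, at 34.0 to 111.

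The effect of lapatinib was set beside itself with and without GSK126. Of the 14 members that rose against DMSO, 7 also rose against GSK126 (CTSA, CTSB, IDS, NEU1, PSAP, PPT1 and GRN), and 7 did not pass there (TPP1, GAA, HEXA, HGSNAT, NAGLU, SGSH and ARSA). Of all tested genes 13.7% were called higher in the first comparison and 8.48% in the second. Their overlap was not counted, so the 7 of 14 cannot be read as a trait of these members. GLA fell in both. The difference itself was tested as the interaction, where 2 of 14179 genes were higher (0.0141%) and 1 lower (0.00705%), and 0 of 41 members were called with limma, with 4 at an unadjusted p under 0.05. By edgeR's quasi-likelihood test 0 were called, and by DESeq2 1, GAA, at -0.90 (adjusted p = 0.0135). With array weights in limma, given further below, 14 of 41 were called, so the count depends on how library spread is modelled. In limma GAA was at -0.90 ± 0.21, adjusted p = 0.264, CTSH at 0.66 ± 0.25, adjusted p = 0.693 and TFEB at 0.71 ± 0.38, adjusted p = 0.913. A p that misses the threshold does not show that the effects were equal.

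**Figure D5:**
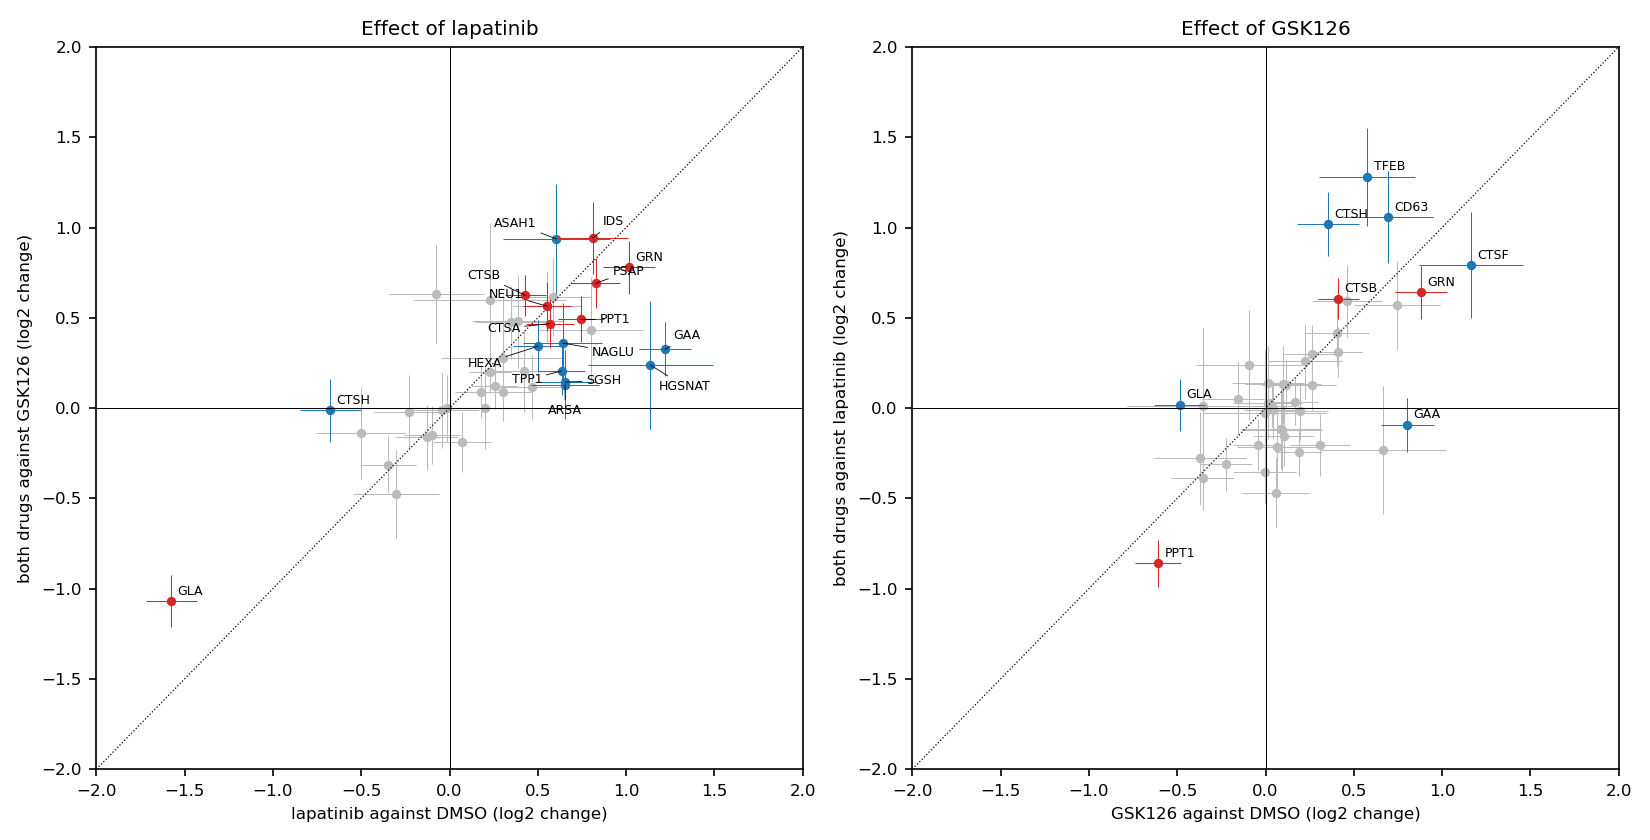
Each point is 1 of the 41 tested lysosomal genes, with SE bars. The left panel sets the log2 change with lapatinib against DMSO (x) beside that on top of GSK126 (y), and the right panel the change with GSK126 against DMSO (x) beside that on top of lapatinib (y). Red points were called in both, blue in 1 and grey in neither. The 2 axes of a panel share no library, and GLA (left) and PPT1 (right) are the red points below 0. Under spike-in scaling all y values of the left panel move down by about the all-gene shift of -1.03.

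Across the 6 comparisons 23 members were called at least once by limma on the deposited scaling. The matching share of all tested genes was not counted, so this count describes the members only. For both drugs against DMSO alone, 22.0% of all tested genes were called higher and 20.1% lower. The 18 members called in none by limma on the deposited scaling were CTSD, CTSZ, GLB1, GUSB, MANBA, SMPD1, LIPA, LAMP1, NPC1, NPC2, CLN3, the 5 pump genes, TFE3 and MITF. Of these, CTSZ and MITF were called lower for both drugs against GSK126 under spike-in scaling. GRN and CTSB were called in all 5 comparisons of groups on the deposited scaling, higher in each, and in none under spike-in scaling. Calls that were made in every fit that left out 1 library numbered 8 of 16 for lapatinib, 3 of 6 for GSK126, 5 of 9 for both drugs against GSK126, 6 of 6 against lapatinib and 10 of 16 against DMSO. How many calls of all tested genes were kept in this way was not counted.

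The wider lists of lysosomal genes outside the 43 were drawn from general knowledge of the pathway, with earlier results of these data known. Of 39 other hydrolases and activators tested, 14 rose and 2 fell with lapatinib, 4 rose and 2 fell with GSK126, and 9 rose and 6 fell with both drugs against DMSO. With lapatinib the shares were 35.9% higher and 5.13% lower, against 13.7% and 14.3% of all tested genes, while the share higher with GSK126 (10.3% against 10.7%) and those with both drugs (23.1% higher against 22.0%, 15.4% lower against 20.1%) were near the all-gene shares. CTSO, a cysteine cathepsin, rose from 29.4, 32.6 and 63.0 to 202, 220.3 and 246 with lapatinib (2.47 ± 0.26, adjusted p = 2.34e-05). SIAE, an esterase of sialic acid, rose by 1.12 ± 0.15 (adjusted p = 0.000128), and GM2A, the ganglioside activator, by 0.84 ± 0.13 (adjusted p = 0.000592). FUCA1, the fucosidase, had 127, 176 and 212 with DMSO, 270.3, 248 and 274 with lapatinib, 380.1, 391 and 403 with GSK126, and 699, 721 and 644 with both drugs, and rose with GSK126 (1.21 ± 0.18, adjusted p = 0.000498).

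CTSS, a cathepsin of antigen-presenting cells, had 1.23, 0.988 and 6.40 with DMSO, 8.81, 12.8 and 11.3 with lapatinib, 49.3, 157 and 103 with GSK126, and 180.5, 202 and 176 with both drugs. It was near 0 with DMSO and rose with GSK126 (adjusted p = 3.34e-05), where a fold would rest on the pseudocount. The summed macrophage markers given above were also higher in the libraries with GSK126. The largest sum, 912, was mostly CSF1R, which reached 877, and no other marker of that list passed 41.6. PTPRC, LYZ and CD163 were at 0 in 8 of 12 libraries each. The part of these markers in the change of CTSS was not tested.

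Of 31 other membrane proteins tested, 11 rose and 3 fell with lapatinib, 7 rose and 1 fell with GSK126, and 12 rose and 1 fell with both drugs against DMSO. The shares higher were 35.5%, 22.6% and 38.7%, against 13.7%, 10.7% and 22.0% of all tested genes, and the shares lower 9.68%, 3.23% and 3.23%, against 14.3%, 3.93% and 20.1%. SLC29A3, a nucleoside transporter, had 591, 708 and 616 with DMSO, 1498, 1298 and 1278 with lapatinib, 1524, 1392 and 1691 with GSK126, and 3288, 3058.5 and 3595 with both drugs. Both single-drug groups lay above DMSO and the combination above both, at 1.09 ± 0.14, adjusted p = 9.13e-05 with lapatinib, 1.26 ± 0.14, adjusted p = 3.94e-05 with GSK126 and 2.38 ± 0.14, adjusted p = 6.31e-08 with both. TPCN1, a calcium and sodium channel, rose by 1.00 ± 0.14 with lapatinib (adjusted p = 0.000198), and SIDT2 by 1.04 ± 0.17 (adjusted p = 0.000802). MCOLN3, a relative of MCOLN1, was at 23.0, 23.8 and 21.2 with GSK126 (adjusted p = 0.000747), at 0, 0.988 and 0 with DMSO and at 4.98, 5.66 and 5.78 with both drugs.

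Of 13 genes of enzyme sorting, which tag hydrolases and carry them from the Golgi, 2 rose and 1 fell with lapatinib, 0 were called with GSK126 (limma, edgeR and DESeq2; 0 at an unadjusted p under 0.05), and 2 rose and 2 fell with both drugs against DMSO. With lapatinib the share higher (15.4%) was near that of all tested genes (13.7%) and the share lower was 7.69% against 14.3%, and with both drugs 15.4% were called each way, against 22.0% higher and 20.1% lower. SORT1, a sorting receptor, rose by 0.57 ± 0.14 with lapatinib (adjusted p = 0.00993).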

How the data were processed

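Messenger RNA of 12 SKBR3 libraries was measured. Per the submitters' processing notes, the authors used STAR for alignment to hg19 and DESeq2 for normalization (versions not stated). The counter, annotation and strand setting are not given in the sources used here, so overlapping genes may share reads. The deposited values are a signal that the authors made by dividing reads by library size factors, and 100% of values were whole multiples of 1 read within 0.01, so reads were recovered. The table held 22256 features, 86 of them spike-ins.

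The 6 comparisons (5 between groups, and the interaction of the drugs) were tested on log2(value + 1) with limma 3.58.1 (R 4.3.3). A single fit held the 12 libraries, which left 8 residual degrees of freedom, and used a trended prior. Genes under 10 in more than 9 libraries were left out, and p-values were adjusted by Benjamini-Hochberg over the remaining 14179. The 18.0 to 30.5 M reads a library limit genes with few reads most, and p-values cover library spread only. The procedure was tested on simulated data. Members and RefSeq promoters (GRCh38.p14, not the authors' hg19) were matched by symbol. The members, wider lists, marker lists (luminal, macrophage, melanocyte, fibroblast and endothelial) and alternatives were chosen with earlier results of these data known. In the order DMSO, lapatinib, GSK126 and both drugs, fibroblast markers summed to 248 to 388, 208 to 239, 202 to 288 and 70.4 to 166 normalized counts, and melanocyte markers to 34.6 to 55.2, 50.7 to 59.6, 34.0 to 77.8 and 63.1 to 112. Luminal markers summed to 525893 to 903737 over the libraries. Named genes were the 6 members with the smallest adjusted p in a comparison, LAMP1, LAMP2, CTSD, TFEB, TFE3 and MITF, and up to 3 of each wider list. The text adds other members with their calls, and some named after their values were seen.

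Alternative settings changed 1 choice at a time: the pseudocount (0.5 or 5), the filter (none, or 50), the scaling (TMM, upper quartile, total count, spike-in total), the prior (constant), library weights, the groups in the fit, a replicate block, a term for spike-in composition, the 3 libraries of the second composition (left out), the tool (edgeR 4.0.16 or DESeq2 1.42.0 on recovered reads), and each library in turn (left out).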

Additional observations from a re-analysis of the deposited data

How the results depend on the processing

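Under pseudocounts, filters, TMM and upper quartile scaling, a constant prior and edgeR, the counts of called members stayed within 1.5 times the reported ones and the medians within the replicate spread in all 6 comparisons. Under total count scaling the counts were 11 (GSK126 against DMSO), 10 (both against lapatinib) and 26 (both against DMSO), and the medians 0.56 (lapatinib), 0.21 (GSK126), 0.36 (both against GSK126), 0.11 (against lapatinib) and 0.56 (against DMSO). Under spike-in scaling the counts were 1, 0, 4, 0 and 2 (in the order lapatinib, GSK126, and both drugs against GSK126, lapatinib and DMSO, as below). All of these calls were lower, and 0 members were called higher in any of the 5. The calls were GLA with lapatinib, GLA, CTSZ, CD63 and MITF for both drugs against GSK126, and GLA and MCOLN1 against DMSO. The medians under that scaling were -0.15 with lapatinib, -0.84, -0.44 and -0.70 for both drugs against GSK126, lapatinib and DMSO, and -0.55 for the interaction. The members' median minus that of all genes was 0.35, 0.15, 0.17, 0.04 and 0.24 on the deposited scaling and 0.34, 0.14, 0.16, 0.04 and 0.23 under spike-in scaling. Fitting only the groups compared gave 26 (lapatinib), 1 (GSK126), 1 (both against GSK126) and 16 (both against lapatinib). Array weights gave 29, 18, 20, 27 and 27, and 14 for the interaction, with medians of 0.23 (GSK126), 0.088 (both against GSK126) and -0.20 (interaction). The spike-in composition term gave 0 (GSK126, median 0.20) and 3 (both against GSK126), and an interaction median of -0.13. In that fit GSK126 library 1 had a level of its own, so GSK126 and composition could hardly be separated. Without the 3 libraries of the second composition the counts were 27, 23, 19 and 11, and 3 for the interaction, with medians of 0.22 (GSK126) and -0.16 (interaction). DESeq2 called 1 interaction. The cause of these shifts was not tested.

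The estimates of single genes changed sign under spike-in scaling, and none of the changes listed here for that scaling was called. With lapatinib CTSB was at -0.11, HEXA at -0.037 and ATP6V1G1 at -0.099. For both drugs against GSK126, CTSA was at -0.58, CTSB -0.42, IDS -0.10, NEU1 -0.48, PSAP -0.35, PPT1 -0.55, ASAH1 -0.11, GRN -0.26, GM2A -0.079, SIAE -0.18, TPCN1 -0.23, SORT1 -0.49, TSC1 -0.30, LAMTOR3 -0.42 and CTSL -0.35. Against DMSO, CTSA was at -0.13, TPP1 -0.61, NEU1 -0.32, SGSH -0.55, PSAP -0.052, ASAH1 -0.16, LAMP2 -0.43, SCARB2 -0.29, SORT1 -0.40, SORL1 -0.52 and FNIP1 -0.12. Without the second spike-in composition LAMP2 was at -0.50 with GSK126, a comparison then left with 1 GSK126 library, which is assumed to vary like the other groups.

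Leaving out 1 library gave 9 to 22 called members for lapatinib, 3 to 10 for GSK126, 6 to 13, 6 to 9 and 10 to 22 for both drugs against GSK126, lapatinib and DMSO, and 0 to 0 for the interaction. The medians ran 0.29 to 0.42, 0.087 to 0.25, 0.19 to 0.26, -0.0021 to 0.053, 0.30 to 0.41, and -0.19 to -0.034. Replicate numbers are shared by the groups but mark no stated pairing. Deviations of same-numbered libraries correlated at -0.33 to 0.35 (median -0.072, 4 of 18 over 0.1), and a library correlated best with its own number in 8 of 36 cases. With a replicate block the counts were 16, 4, 8, 6, 15 and 0.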

Other observations

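CTSL, the cysteine cathepsin that RefSeq gives for the listed symbol CTSL1, had 2209, 2159 and 2191 with DMSO, 1946, 1999.8 and 1824 with lapatinib, 2657, 2825 and 3295 with GSK126, and 4443, 4865 and 4865 with both drugs. The lapatinib libraries were the lowest and the libraries with both drugs the highest, with no overlap with any other group. CTSL rose by 1.11 ± 0.12 with both drugs against DMSO (adjusted p = 1.31e-05, limma) and by 1.30 ± 0.12 against lapatinib (adjusted p = 8.25e-06), while with lapatinib alone it was at -0.19 ± 0.12, adjusted p = 0.269. Its interaction was 0.88 ± 0.17, adjusted p = 0.115. The rise with GSK126 alone (0.41 ± 0.12, adjusted p = 0.0346) was lost in 9 of the 12 fits that left out 1 library (0.0513 to 0.0928): each DMSO and each lapatinib library, GSK126 library 3, and libraries 2 and 3 of the combination. For both drugs against GSK126 it was at 0.70 ± 0.12, adjusted p = 0.0016, and at -0.35 under spike-in scaling.

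Among 20 tested genes that control TFEB and TFE3, 3 rose and 1 fell with lapatinib, 2 rose and 1 fell with GSK126, and 5 rose and 1 fell with both drugs against DMSO. The shares higher, 15%, 10% and 25%, were near those of all tested genes, 13.7%, 10.7% and 22.0%. The share lower was 5% in each, against 14.3%, 3.93% and 20.1% of all tested genes. RRAGD, a Rag GTPase that recruits mTORC1 to the lysosome, had 141, 159 and 191 with DMSO, 174, 187 and 210.2 with lapatinib, 745, 569 and 574 with GSK126, and 541, 574 and 647 with both drugs. The 6 libraries with GSK126 were above the 6 without, and RRAGD rose by 1.94 ± 0.18 with GSK126 (adjusted p = 1.08e-05, limma). FNIP1, a partner of folliculin, rose by 0.81 ± 0.17 with lapatinib (adjusted p = 0.00348), and FNIP2 by 2.09 ± 0.41 for both drugs against lapatinib (adjusted p = 0.00308), from 39.2, 23.4 and 46.0 to 168, 160.2 and 129.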
